A study of Mus musculus with 9 samples.

Results

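Tumour cells can display surface proteins that hold back the immune cells that touch them, and 10 mouse genes of this kind are described here across 9 RNA-seq libraries of B16F10 cells, a melanoma line of mouse origin. The genes were listed by name as immune checkpoint ligands: Cd274, Cd276, Vsir, Pvr, Nectin2, Lgals9, Tnfrsf14, Cd47, Cd200 and Nt5e. All 10 have a row among the 54752 genes of the count table, and 7 of them passed the filter on low counts that left 17931 genes for testing. The study set cells given a guide against GFP (GFPsg, genotype given as WT) beside cells given either of 2 guides against Tada2b (Tada2bsg1 and Tada2bsg2, genotype given as Tada2b knockout), with 3 libraries in each group. Tada2b encodes an adaptor of the SAGA complex, which acetylates histones. All groups were grown as cultures in DMEM with 10% FBS, with no added agent named. Nothing in the labels says whether a group is 1 clone or a pool, or whether the replicates were separate cultures, so the p-values speak only of the scatter among these libraries, which may be technical.

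Checkpoint ligands work by engaging a receptor on a T cell, a natural killer cell or a macrophage. PD-L1, the product of Cd274, binds PD-1 on T cells and is a target of antibody treatment in melanoma. The others act through their own partners: the nectin family through TIGIT, CD96 and DNAM-1, galectin-9 through TIM-3, HVEM through BTLA and CD160, CD47 through SIRPα on phagocytes, and CD73 by making adenosine outside the cell. Interferons are a known inducer of several of these genes.

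Promoter sequence was looked at first, since interferon-induced genes often carry an interferon-stimulated response element (ISRE) near their start. The ISRE core was searched as GAAANNGAAA and a STAT site as TTCNNNGAA, both on either strand, in windows of 250 bases before to 50 bases after the start of each gene from RefSeq (build GRCm38.p6). Windows were at hand for 9 of the 10 members. The ISRE core was found in the windows of Lgals9 and Tnfrsf14 and in no window of the other 7, and no member's window held the STAT site. Of 32851 windows of all genes, 3.44% held the ISRE core and 8.30% the STAT site. The sequences below show the match of Lgals9, the match of Tnfrsf14 and, for comparison, the upstream window of Cd274, where neither motif was found. They are written 5′ to 3′ along the gene's strand, and the capitals mark the ISRE core, which lies on the reverse strand in both genes.
Lgals9, chr11:78984947-78985174, minus strand: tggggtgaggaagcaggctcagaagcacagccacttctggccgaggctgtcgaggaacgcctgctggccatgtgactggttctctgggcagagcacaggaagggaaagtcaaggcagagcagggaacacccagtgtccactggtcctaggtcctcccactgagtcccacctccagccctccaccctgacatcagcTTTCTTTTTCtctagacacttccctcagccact
Tnfrsf14, chr4:154928122-154928151, minus strand: ctattttttcTTTCATTTTCacttttcctt
Cd274, chr19:29367188-29367437, plus strand: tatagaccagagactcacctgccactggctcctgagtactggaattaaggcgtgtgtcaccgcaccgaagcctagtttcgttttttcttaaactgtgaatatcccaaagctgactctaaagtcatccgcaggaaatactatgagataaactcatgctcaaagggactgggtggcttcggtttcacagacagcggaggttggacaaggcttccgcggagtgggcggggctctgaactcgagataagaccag
The match in Lgals9 lies 46 to 55 bases before the RefSeq start and outside every exon that the GENCODE annotation gives for the gene. The stretch shown for Lgals9 ends 23 bases before that start, where the first GENCODE exon begins, and a second match of Lgals9 lies 15 to 24 bases past the start. The match in Tnfrsf14 lies 55 to 64 bases before the RefSeq start, but inside an exon of 1 of 5 GENCODE transcripts of that gene, so only 30 bases are shown. A match of letters describes the sequence and does not show that a factor binds there.

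Library totals ran from 70.6 to 76.9 M counts. Levels are given in CPM, the reads of a gene per 1 M reads counted in its library (M, mega), with library sizes scaled by TMM. The labelled cell type was checked by 9 melanocyte markers, all detected in every library and all lower in the knockout libraries: their summed level was 21054 to 21872 CPM in GFPsg, 5130 to 5370 CPM with Tada2bsg1 and 7266 to 7509 CPM with Tada2bsg2. Of 14 leukocyte markers 5 passed the filter, of which 3 rose and 1 fell, and the summed level of all 14 was 3.69 to 4.06 CPM in GFPsg, 7.17 to 7.55 CPM with Tada2bsg1 and 6.26 to 6.54 CPM with Tada2bsg2. Cx3cr1, 1 of the 3 that rose, held 1 to 5 reads per GFPsg library and 6 to 32 reads in the knockout libraries. It passed the filter only through the latter. Of the 14, Ptprc, Itgam and Tyrobp were at 0 in all 9 libraries. Others were detected: Cd68 and Lyz2 held 2169 and 1186 reads over the 9 libraries and rose by 1.09 and 1.08 on the log2 scale. Fcer1g held 386 reads and fell by 1.19. Of 10 fibroblast and endothelial markers 5 were tested, of which 3 rose and 1 fell, with sums over the 10 of 10.4 to 12.7, 27.08 to 28.22 and 24.99 to 27.10 CPM, and of 6 epithelial markers 3 were tested, of which 1 rose and 1 fell, with sums over the 6 of 1.05 to 1.30, 0.595 to 0.726 and 0.572 to 0.684 CPM. By the rule given below, 51.0% of all tested genes were called, 24.7% as higher and 26.3% as lower. Krt7, the epithelial marker that rose, held at most 16 reads in any library and 87 over the 9 libraries. It too passed the filter only through the knockout libraries. The part of these markers in the ligand results below was not tested, and in bulk RNA fewer cells of a type and less RNA per cell cannot be told apart. Tada2b mRNA was not lower in the libraries labelled knockout, at 26.6 ± 1.4 CPM in GFPsg, 32.8 ± 0.53 CPM with Tada2bsg1 and 27.0 ± 1.73 CPM with Tada2bsg2 (0.16 ± 0.05 for both guides against GFPsg, edgeR, adjusted p = 0.0101, and 0.14 without GFPsg replicate 2, edgeR, adjusted p = 0.0534). That level does not check the label, and knockout libraries here means the libraries labelled so.

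Among the 7 tested members, 5 were higher and 1 was lower in the knockout libraries than in GFPsg, and 1 was not called. The other 3 members were low in every group and left out by the filter, while Tnfrsf14, also under the count minimum of 10 in every GFPsg library, entered the tested set only through its knockout libraries and so had to differ, which tilts the tally toward rises. Lgals9, Tnfrsf14, Pvr, Cd47 and Cd274 rose by 1.75, 1.55, 1.04, 0.66 and 0.30 on the log2 scale, and Cd276 fell by 0.51. Nectin2 was within 0.03 ± 0.05 (log2 fold change ± SE) of GFPsg. These values compare the average of the 2 guides with GFPsg in edgeR's quasi-likelihood test, and genes with a Benjamini-Hochberg adjusted p under 0.05 over all 17931 genes were called. By the same rule 51.0% of all tested genes were called, 24.7% as higher and 26.3% as lower, so a call is common in this comparison. The median log2 fold change was 0.66 over the 7 tested members and -0.02 over all tested genes. A share of 21.8% of all tested genes had all 6 knockout libraries above the 3 GFPsg libraries, and 22.2% had them all below, 44.0% in all. Among the members this held for Lgals9, Pvr, Cd47 and Cd274 above and for Cd276 below.

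**Figure D1:**
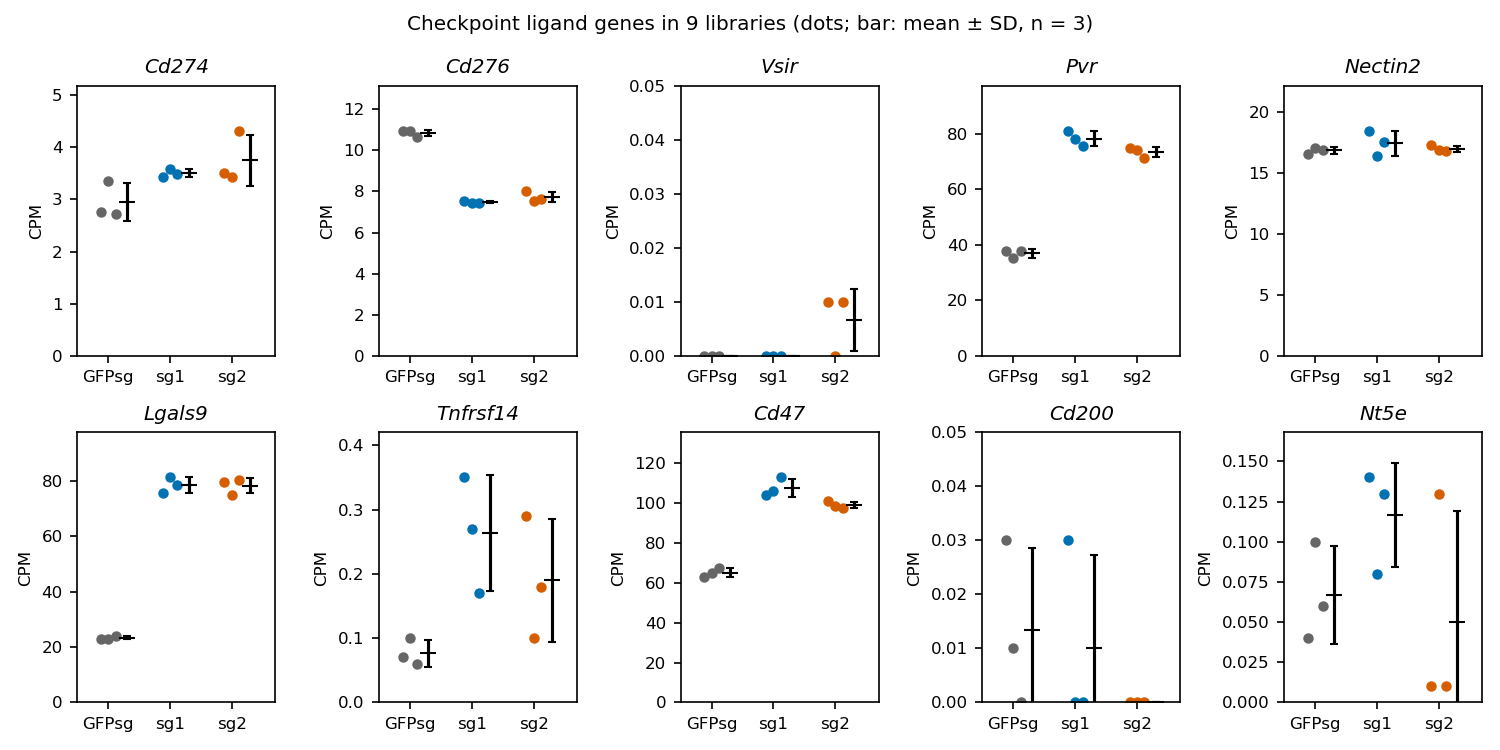
Each panel plots CPM (y axis, from 0) of 1 ligand gene in the 9 libraries (dots) by group (x axis; sg1 and sg2 are Tada2bsg1 and Tada2bsg2), with the mean and SD of 3 libraries as bars. Lgals9, Pvr and Cd47 lie well above GFPsg with both guides, Cd276 lies below, Nectin2 lies level, and Vsir, Cd200 and Nt5e lie near 0.

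Of the B7 family, Cd274 (ENSMUSG00000016496, chr19:29367455-29388095, plus strand) encodes PD-L1. Its level was 2.76, 3.36 and 2.71 CPM in the GFPsg libraries, 3.43, 3.58 and 3.49 CPM with Tada2bsg1, and 3.51, 3.43 and 4.31 CPM with Tada2bsg2. All 6 knockout libraries lay above all 3 controls, but the lowest of them, at 3.43 CPM, was close to the highest control, at 3.36 CPM. The rise was 0.30 ± 0.11 (edgeR, adjusted p = 0.0244), or 1.23-fold. Without GFPsg replicate 1 or without GFPsg replicate 3 it was 0.26 each time and no longer called (edgeR, adjusted p = 0.0994 in both). By guide, the difference from GFPsg was 0.35 ± 0.12 for Tada2bsg2 (edgeR, adjusted p = 0.0246) and 0.25 ± 0.12 for Tada2bsg1, which missed the threshold (edgeR, adjusted p = 0.098). The guides themselves differed by 0.10, with a 95% interval from -0.15 to 0.35, a range that holds 0. Read depth was modest, at 194 to 309 counts per library. A share of 14.1% of the exon bases of Cd274 also belongs to AC119228.1, a gene on the opposite strand with no count used here.

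Cd276 (ENSMUSG00000035914, chr9:58524298-58555437, minus strand) encodes B7-H3, a B7 protein found on many solid tumours whose receptor is not settled. It was the only tested member that fell. The GFPsg libraries held 10.94, 10.94 and 10.66 CPM. The Tada2bsg1 libraries held 7.53, 7.43 and 7.45 CPM, and the Tada2bsg2 libraries 8.01, 7.55 and 7.65 CPM. Every knockout library was lower than every control, and the spread within each group was small beside the gap. The change was -0.51 ± 0.06 (edgeR, adjusted p = 6.91e-07), a 1.43-fold lower level, with -0.54 for Tada2bsg1 and -0.49 for Tada2bsg2. Of all tested genes, 12.1% had a lower log2 fold change. An overlapping gene on the opposite strand, Gm10657, shares 11.4% of the exon bases of Cd276 and held 24 reads over the 9 libraries, against 5773 for Cd276.

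Vsir (ENSMUSG00000020101, chr10:60346851-60372684, plus strand) encodes VISTA, which is best known from myeloid cells and T cells. It was at 0 counts in 7 libraries and at 1 count in Tada2bsg2 replicates 1 and 3. Any level in GFPsg or with Tada2bsg1 was therefore under the limit that a count of 0 allows over a group, 0.0141 and 0.013 CPM. That limit is 3 counts over the group's summed depth, and covers counting error only.

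Pvr and Nectin2 are related genes of adhesion molecules on chromosome 7, 153.1 kb apart, and both encode ligands of the same receptors, TIGIT, which inhibits, and DNAM-1, which activates. Pvr (ENSMUSG00000040511, chr7:19903578-19921160, minus strand), which encodes CD155, held 37.95, 35.08 and 37.88 CPM in GFPsg. It held 80.99, 78.23 and 75.59 CPM with Tada2bsg1 and 74.78, 74.06 and 71.29 CPM with Tada2bsg2. The lowest knockout library was far above the highest control. The rise was 1.04 ± 0.04 (edgeR, adjusted p = 6.56e-13), a 2.05-fold higher level. By guide it was 1.08 ± 0.04 and 0.99 ± 0.04.

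Nectin2 (ENSMUSG00000062300, chr7:19716644-19750483, minus strand), which encodes CD112, held 16.56, 17.06 and 16.88 CPM in GFPsg. The values were 18.43, 16.38 and 17.51 CPM with Tada2bsg1 and 17.26, 16.89 and 16.79 CPM with Tada2bsg2. The groups overlapped, and the knockout libraries held both the highest and the lowest value. The 95% interval of the change, -0.07 to 0.14 on the log2 scale, leaves no room for a change of the size seen in Pvr (edgeR, adjusted p = 0.627). The ratio of Pvr reads to Nectin2 reads within a library was 2.29, 2.06 and 2.24 in GFPsg, 4.39, 4.78 and 4.32 with Tada2bsg1, and 4.33, 4.38 and 4.25 with Tada2bsg2. These ratios are not scaled by length, so they compare the groups and not the genes. All 6 knockout libraries had a higher ratio than all 3 controls. Nectin2 shares 3.9% of its exon bases with Gm20512 on the opposite strand, which held 8 reads in all.

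Lgals9 (ENSMUSG00000001123, chr11:78962974-78984946, minus strand) encodes galectin-9, a sugar-binding ligand of TIM-3 and an interferon-induced gene. Its level was 22.99, 23 and 24.07 CPM in GFPsg. With Tada2bsg1 it was 75.61, 81.22 and 78.56 CPM, and with Tada2bsg2 it was 79.55, 75.04 and 80.19 CPM. No library of one genotype came near the other. The rise was 1.75 ± 0.04 (edgeR, adjusted p = 1.04e-15), a 3.35-fold higher level. This was the highest estimate among the tested members for both guides together, and it lies inside the wide interval of Tnfrsf14 given below. The guides gave 1.75 and 1.74, and their difference was within a 95% interval of -0.09 to 0.09. Of all tested genes, 3.68% had a higher log2 fold change. Its upstream sequence with the ISRE core is printed above, beside the match in Tnfrsf14.

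Tnfrsf14 (ENSMUSG00000042333, chr4:154921933-154928563, minus strand) encodes HVEM, the ligand of BTLA and CD160 and also a receptor for LIGHT. It was barely detected, with 5, 7 and 4 counts in GFPsg, 28, 20 and 13 counts with Tada2bsg1, and 22, 8 and 13 counts with Tada2bsg2. Every knockout library held more reads than every control, but after scaling the lowest knockout library was at 0.10 CPM, inside the GFPsg range of 0.06 to 0.10 CPM. The rise of 1.55 ± 0.47 (edgeR, adjusted p = 0.0106) has a 95% interval from 0.56 to 2.54, so its size is poorly known. With fewer than 10 counts in every GFPsg library, the gene passed the filter only through the groups where it is high. It was called for Tada2bsg1 (1.78, edgeR, adjusted p = 0.00788) and missed the threshold for Tada2bsg2 (1.32, edgeR, adjusted p = 0.0524), and the difference between the guides was not called. Without GFPsg replicate 3 the combined change was 1.39 and not called (edgeR, adjusted p = 0.0525).

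Cd47 (ENSMUSG00000055447, chr16:49800533-49915010, plus strand) encodes the signal that holds back phagocytosis through SIRPα. It held 62.89, 64.93 and 67.68 CPM in GFPsg. The values were 103.98, 105.87 and 112.88 CPM with Tada2bsg1 and 100.90, 98.79 and 97.51 CPM with Tada2bsg2. The groups of either genotype did not overlap, and every Tada2bsg1 library was above every Tada2bsg2 library. The rise was 0.66 ± 0.04 (edgeR, adjusted p = 1.33e-10), a 1.58-fold higher level. By guide it was 0.72 ± 0.04 and 0.60 ± 0.04, a difference of -0.12 that was not called (edgeR, adjusted p = 0.155).

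Cd200 and Nt5e, like Vsir, were too low to test. Cd200 (ENSMUSG00000022661, chr16:45382135-45409053, minus strand), whose product restrains myeloid cells through CD200R, held 2, 1 and 0 counts in GFPsg, 2, 0 and 0 counts with Tada2bsg1, and none with Tada2bsg2. Nt5e (ENSMUSG00000032420, chr9:88327197-88372092, plus strand) encodes CD73, the enzyme that turns AMP into adenosine. It held 3, 7 and 4 counts in GFPsg, 11, 6 and 10 counts with Tada2bsg1, and 1, 10 and 1 counts with Tada2bsg2. The groups overlapped for both genes. With no filter on low counts neither was called in any comparison, and nor was Vsir.

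No tested member differed between the guides past the threshold. Set against each other, Tada2bsg2 and Tada2bsg1 differed by -0.46 to 0.10 on the log2 scale, and none of the 7 differences was called in edgeR (lowest adjusted p = 0.155), against 3.68% of all tested genes (2.66% higher and 1.02% lower with Tada2bsg2). Pvr and Cd47 had an unadjusted p under 0.05 in this comparison, both with the lower level under Tada2bsg2, and DESeq2 gave 1 such member and no call. Beside GFPsg, 4 members rose and 1 fell with each guide, while 48.4% of all tested genes were called with Tada2bsg1 and 45.1% with Tada2bsg2. The guides share their GFPsg libraries, so these counts are not independent of each other.

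**Figure D2:**
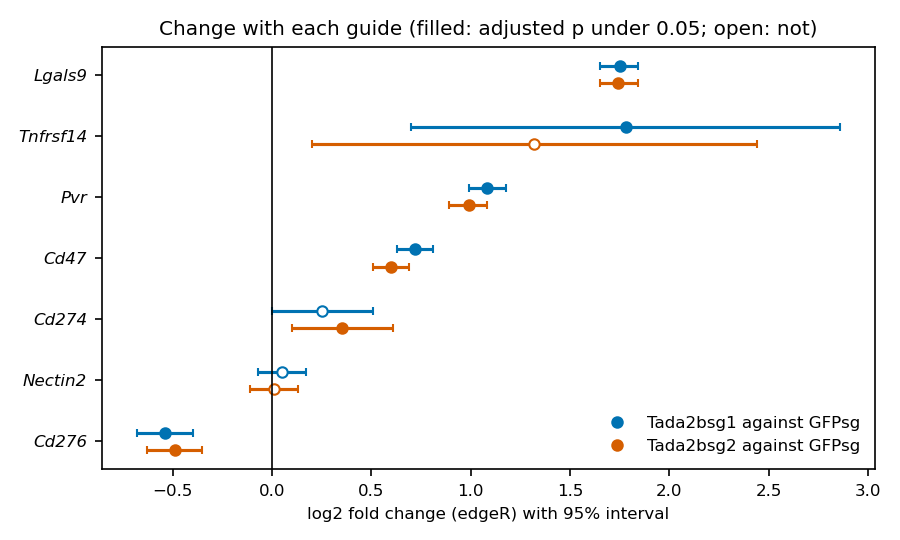
For each of the 7 tested ligand genes (y axis), the x axis gives the log2 fold change of Tada2bsg1 (blue) and Tada2bsg2 (orange) against GFPsg, with 95% intervals as bars. Filled points passed an adjusted p of 0.05 and open points did not: Cd274 is open for Tada2bsg1, Tnfrsf14 for Tada2bsg2 and Nectin2 for both.

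Levels were next compared between genes, as CPM per kb of exon. In GFPsg the order was Lgals9 (10.9 ± 0.291, SD, n = 3), Cd47 (10.4 ± 0.383), Pvr (6.04 ± 0.267), Nectin2 (4.82 ± 0.0721), Cd276 (2.97 ± 0.0451), Cd274 (0.812 ± 0.0995) and Tnfrsf14 (0.053 ± 0.0178). Lgals9 and Cd47 overlapped across the GFPsg libraries, and no other neighbours in the order did. The order was the same with either guide, but there Lgals9, at 36.7 ± 1.31 and 36.6 ± 1.31, stood clear of Cd47, at 17.1 ± 0.747 and 15.8 ± 0.273. PD-L1's gene was thus low among the detected ligands in every group, at 0.966 ± 0.02 with Tada2bsg1 and 1.04 ± 0.134 with Tada2bsg2.

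Summed over all 10 members, with Vsir, Cd200 and Nt5e near 0, the level was 36.0 ± 0.668 CPM per kb in GFPsg, 74.8 ± 0.976 with Tada2bsg1 and 72.5 ± 1.51 with Tada2bsg2. The make-up of that sum changed as well as its size. Lgals9 supplied 30.3% ± 0.26 of it in GFPsg and 49.0% ± 1.17 and 50.5% ± 0.962 with the guides. The share of Cd276 went from 8.24% ± 0.274 to 2.73% ± 0.0553 and 2.91% ± 0.05, and that of Nectin2 from 13.4% ± 0.266 to 6.67% ± 0.475 and 6.70% ± 0.116. A lower share need not mean a lower level, since the sum grew: Nectin2 itself was level. The shares of Cd47 (28.8% to 22.9% and 21.8%) and Cd274 (2.26% to 1.29% and 1.43%) fell too, though both genes were called higher for both guides together. The share of Pvr overlapped between all 3 groups, at 16.8% ± 0.705 in GFPsg, 17.1% ± 0.781 with Tada2bsg1 and 16.5% ± 0.549 with Tada2bsg2.

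**Figure D3:**
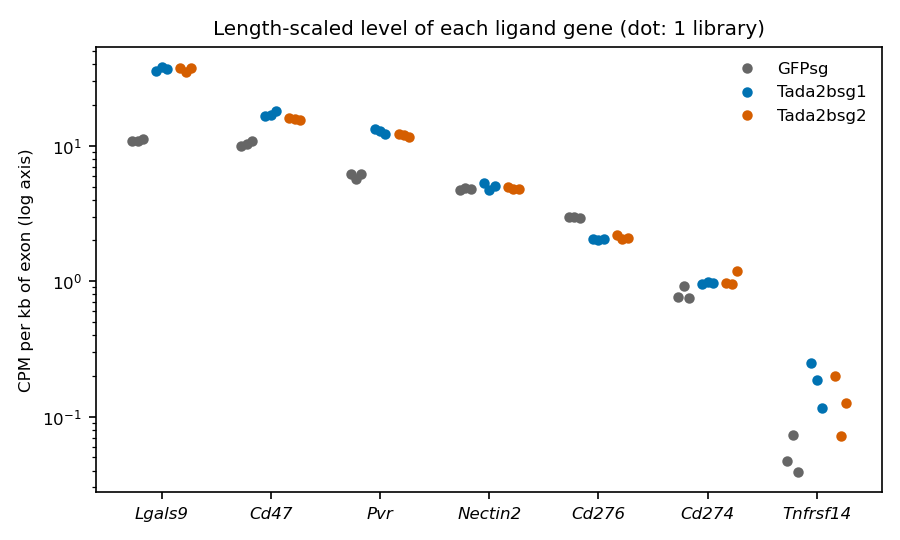
The y axis (log scale) gives CPM per kb of exon of each tested ligand gene (x axis, ordered by level), with 1 dot per library in the 3 groups. Lgals9 and Cd47 overlap in GFPsg near 10, and Lgals9 lies above Cd47 in all 6 knockout libraries.

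The genes that control PD-L1 were looked at beside it, from a list of 25 that were all tested. Of them 13 rose, 7 fell and 5 were not called, with a median log2 fold change of 0.11. Among all tested genes 51.0% were called, 24.7% as higher and 26.3% as lower, and the part of read depth in this tally was not tested. Irf1, an interferon-induced transcription factor, went from 13.05 ± 0.99 CPM in GFPsg to 39.0 ± 0.27 and 34.4 ± 0.79 CPM, a rise of 1.49 ± 0.05 (edgeR, adjusted p = 8.97e-14). Stat3, a transcription factor of cytokine signalling, rose by 1.39 ± 0.04 and Nfkb1, an NF-κB subunit, by 1.06 ± 0.04. Cmtm6, whose product keeps PD-L1 on the cell surface, rose by 0.32. The chains and kinases of the interferon-γ receptor went both ways: Ifngr1 rose by 0.34 and Ifngr2 fell by 0.68, and Jak1 rose by 0.42 and Jak2 fell by 0.16, the last not called when libraries were scaled by size alone (-0.08, edgeR, adjusted p = 0.143). Beside these, the log2 fold change of Cd274 was 0.30 ± 0.11, and 20.2% of all tested genes had a higher one.

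Among the 3 genes most like Lgals9 across the 9 libraries, by Pearson's r of log2 CPM among 9487 genes with a mean of at least 5 CPM, were Ddx58 (r = 0.9991), which encodes the RNA sensor RIG-I, and Rtp4 (r = 0.9989), an interferon-induced gene. For Cd276 the 3 were Bri3bp (r = 0.9972), Fam84b (r = 0.9971) and Met (r = 0.9959), the receptor of hepatocyte growth factor. The libraries lie in 2 sets by genotype, so a gene with a steady gap between the sets gets a high r, and 1190 genes passed an r of 0.95 with Lgals9 and 1025 with Cd276. These values are descriptions and single out no gene.

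Other ligands and partners of each family were taken from lists, read against the 51.0% of all tested genes that were called. Among 6 tested genes of other B7 and inhibitory ligands, 2 rose, 1 fell and 3 were not called. Clec2d, the ligand of the inhibitory NK receptor NKR-P1B, rose by 2.14 ± 0.14, from 0.788 ± 0.154 CPM in GFPsg to 3.7 ± 0.447 and 3.31 ± 0.137 CPM. H2-T23, which encodes Qa-1, the ligand of NKG2A, rose by 1.59 ± 0.25. Ceacam1, which encodes a ligand proposed for TIM-3, fell by 1.51 on the log2 scale. Fgl1, a ligand of LAG-3, had a log2 fold change of 0.56 ± 0.25 that was not called, and it was called in 3 of 14 alternative analyses.

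Among 5 tested nectins and nectin-like molecules, 2 rose, 1 fell and 2 were not called. Cadm4 rose by 1.02 ± 0.05 and Cadm1, the ligand of CRTAM, by 0.48 ± 0.04. Nectin3, another nectin, was called lower at -0.10 ± 0.03, and this call was lost in 12 of 15 alternative analyses, reaching -0.01 when libraries were scaled by size alone. Nectin4 was at 0.92 ± 0.4, not called, on 4 to 40 reads per library. It was called in 6 of 14 alternative analyses, and was 0.44 without GFPsg replicate 1 and 1.66 without GFPsg replicate 2.

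Of 6 other tested galectins and galectin-binding genes, 4 rose, 1 fell and 1 was not called. Lgals3bp, whose product binds galectins, rose by 1.74 ± 0.05, from 36.4 ± 0.992 to 124.9 ± 0.297 and 118.9 ± 10.1 CPM, a change close in size to that of Lgals9. Lgals2 rose by 4.07 ± 0.43 from 1 to 4 reads per GFPsg library to between 35 and 60 reads in the knockout libraries, and passed the filter only through the latter. The abundant Lgals1 and Lgals3 rose by 0.14 ± 0.04 and 0.34 ± 0.03. Havcr2, the gene of the galectin-9 receptor TIM-3, is usually read as a lymphocyte and myeloid gene, but it was detected here at 2.25 ± 0.258 CPM in GFPsg and 4.96 ± 0.268 and 4.56 ± 0.295 CPM with the guides, a rise of 1.08 ± 0.1 (edgeR, adjusted p = 6.17e-08). It was the 1 gene called among 6 tested receptors of lymphocytes and myeloid cells. Btla, Cd160 and Cd200r1, the receptors for HVEM and CD200, were not called, at 3 to 30 reads per library, though Cd200r1 was called without GFPsg replicate 3 (1.51, edgeR, adjusted p = 0.0482).

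Of 10 costimulatory ligands and partners of the TNF superfamily 7 did not pass the filter, and of the 3 tested 2 rose and 1 was not called. Tnfsf18, which encodes GITR ligand, rose by 3.43 ± 0.24 from 7 to 9 reads per GFPsg library to 76 to 121 reads in the knockout libraries, through which alone it passed the filter. Ltbr, a receptor that shares the ligand LIGHT with HVEM, rose by 0.99 ± 0.04. Tnfsf9, which encodes 4-1BB ligand, was at 0.03 ± 0.08.

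All 7 tested phagocytosis genes were called, 4 higher and 3 lower. Thbs1, which encodes thrombospondin-1, a secreted ligand of CD47, rose by 4.04 ± 0.06, from 13.4 ± 0.812 CPM to 239.2 ± 5.43 and 202.9 ± 18.9 CPM (edgeR, adjusted p = 9.5e-18). Qpctl, whose enzyme modifies CD47 so that SIRPα can bind, rose by 0.60. Sirpa, the gene of the CD47 receptor, was present in these tumour cells at 198.1 ± 8.13 CPM and fell to 66.5 ± 1.09 and 88.3 ± 2.53 CPM, a change of -1.37 ± 0.03 (edgeR, adjusted p = 1.65e-15). Cd47 and Sirpa thus moved in opposite directions in the same libraries. The ratio of Cd47 to Sirpa reads was 0.30 to 0.35 in GFPsg, 1.58 to 1.67 with Tada2bsg1 and 1.09 to 1.16 with Tada2bsg2. The genes of signals that favour uptake were mixed: Mfge8, a bridge to dying cells, rose by 1.47 ± 0.04 and Lrp1, the receptor of calreticulin, by 1.45 ± 0.09, while Calr, calreticulin itself, fell by 0.49.

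Around CD73, 10 of 16 listed genes of the extracellular adenosine pathway were tested, and 5 rose, 1 fell and 4 were not called. Entpd2, an ectonucleotidase that breaks down ATP, rose by 1.61 ± 0.11, and Cd38, an ectoenzyme that uses NAD, by 1.29 ± 0.09. The nucleoside transporters Slc29a1 and Slc29a2 rose by 0.98 ± 0.05 and 1.32 ± 0.23. Enpp1 fell by 0.39, or by 0.23 and not called without GFPsg replicate 1 (edgeR, adjusted p = 0.109), and the receptor genes Adora2a and Adora2b, at -0.11 and -0.53, were not called. Of 5 tested genes listed as ligands that activate natural killer cells, Ulbp1, a ligand of NKG2D, rose by 0.72 ± 0.15. Raet1d and Bag6 each rose by 0.17, and the others were not called. By guide, Bag6 was called with both. Raet1d was called with Tada2bsg1 (0.24, edgeR, adjusted p = 0.003) but not with Tada2bsg2 (0.09, edgeR, adjusted p = 0.243). Whether Bag6 acts as a ligand that activates natural killer cells in the mouse was not tested.

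**Figure D4:**
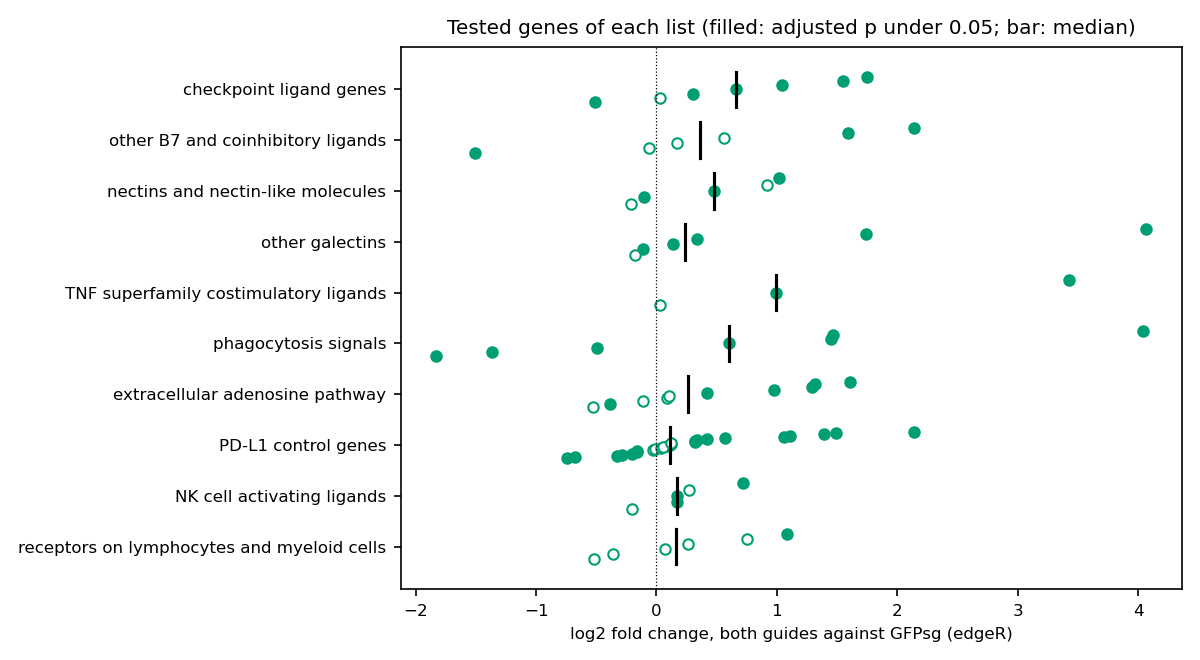
Each dot is 1 tested gene of a list (y axis), placed at its log2 fold change of both guides against GFPsg (x axis); filled dots passed an adjusted p of 0.05 and the bar is the list's median. The ligand genes have a median of 0.66, and the widest spread in both directions is among the phagocytosis signals, from Stc1 at -1.83 to Thbs1 at 4.04.

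**Figure D5:**
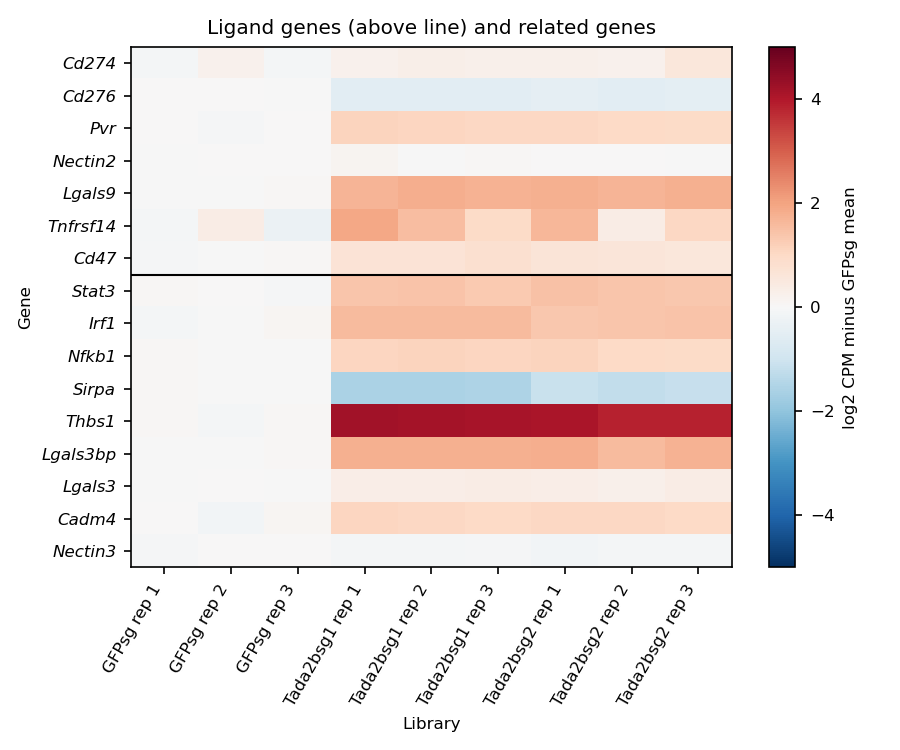
Rows are the 7 tested ligand genes (above the line) and 9 related genes, columns are the 9 libraries, and colour gives log2 CPM minus the GFPsg mean. Lgals9 and Pvr are light red in all 6 knockout libraries along with Stat3, Irf1 and Nfkb1, and Cd47 is a paler red. Sirpa is light blue, Cd276 is very pale blue, and Nectin2 and Nectin3 are near white.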

How the data were processed

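RNA was sequenced from 9 B16F10 libraries in 3 groups of 3. Per the labels' protocols, RNA came from the RNeasy Plus Mini kit and libraries from the KAPA Stranded mRNA-Seq kit. The authors deposited raw read counts per gene, not normalized, as the values show. Per the submitters' processing notes, bcl2fastq, HISAT2 and HTSeq were used with the mm10 build. No source used here gives versions, annotation or strand setting, so reads of overlapping or antisense genes cannot be told apart.

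Of 54752 identifiers, 54723 matched GENCODE M21, which gave symbols, coordinates and exon lengths. Genes were filtered with filterByExpr (count minimum 10), libraries were scaled by TMM, and 1 edgeR 4.0.16 quasi-likelihood fit of all groups (R 4.3.3) gave the contrasts: both guides against GFPsg, each guide against GFPsg, and Tada2bsg2 against Tada2bsg1. SE is the size of the log2 fold change over the square root of F. CPM use TMM-scaled library sizes, and values after ± on CPM are SDs over 3 libraries. No replicate pair agreed within sampling noise (chi-square per degree of freedom of 7.79 to 25.4). On simulated counts with seeded changes the fit for both guides against GFPsg recovered 28 of 47 genes changed 1.25-fold and 42 of 47 changed 2-fold, on 17294 genes. There 17101 genes were left unchanged, while 51.0% of tested genes were called in the data. These recovery rates therefore do not carry over to the data.

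Alternatives were DESeq2 1.42.0, RLE scaling, library size alone, no filter, a stricter filter (1 CPM in 3 libraries), a replicate block, only the groups compared, and each library left out. From each list the up to 4 tested genes with the lowest p for both guides against GFPsg were named, except 1 item that is not reported here. Cmtm6, Jak1, Jak2, Ifngr1, Ifngr2, Qpctl, Calr, Stc1, Enpp1, Adora2a and Adora2b were named after their values were seen. The members and lists were chosen with earlier results of these data known.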

Additional observations from a re-analysis of the deposited data

Results flagged for a closer look

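Set against each other, the guides differed in 5 genes among Tada2b and the named genes of the lists, none of them a checkpoint ligand. The comparison is not given here for genes named only as neighbours of a ligand gene or by likeness to one. The 9 melanocyte markers, not named singly, were all called higher with Tada2bsg2 than with Tada2bsg1, with a median log2 difference of 0.5. Sirpa, the CD47 receptor gene, was 0.41 ± 0.04 (log2) higher with Tada2bsg2 than with Tada2bsg1, at 88.3 ± 2.53 against 66.5 ± 1.09 CPM (edgeR, adjusted p = 9.61e-06), and was below GFPsg with both. Stc1, which encodes the secreted protein stanniocalcin-1, was 1.12 ± 0.25 higher with Tada2bsg2, at 0.594 ± 0.0318 against 0.272 ± 0.0427 CPM (edgeR, adjusted p = 0.0177), a call lost in 3 of 15 alternative analyses: without Tada2bsg1 replicate 1 or 2, or Tada2bsg2 replicate 2 (highest adjusted p = 0.079 in edgeR). Thbs1 differed by -0.24 ± 0.06 (edgeR, adjusted p = 0.0239) and Mfge8 by -0.23 ± 0.04 (edgeR, adjusted p = 0.00266), both nearer to GFPsg with Tada2bsg2. Tada2b mRNA itself differed by -0.28 ± 0.05 (edgeR, adjusted p = 0.00671), with the higher level under Tada2bsg1. The call of Thbs1 was lost in 6 of 16 alternative analyses (-0.31 to -0.19 over all 16, highest adjusted p = 0.137 in edgeR): with library size alone, without any 1 of the Tada2bsg1 libraries, and without Tada2bsg2 replicate 2 or 3. In this comparison 3.68% of all tested genes were called.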

How the results depend on the processing

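Lgals9, Pvr, Cd47 and Cd276 kept their direction and their call in all 15 alternative analyses of both guides against GFPsg, with ranges of 1.73 to 1.83, 1.01 to 1.12, 0.64 to 0.75 and -0.51 to -0.43. Members called in that comparison numbered 4 to 6. Cd274 ranged from 0.26 to 0.42 and Tnfrsf14 from 1.35 to 1.84. For Tada2bsg2 alone Cd274 was also not called without GFPsg replicate 1, GFPsg replicate 3 or Tada2bsg2 replicate 3. For Tada2bsg1 it was called with library size alone and without GFPsg replicate 2. Of 1132 values for 75 single-gene results, 1083 kept direction and side of the threshold. Signs turned in 4, all near 0 and none called: Nectin2 for Tada2bsg2 without GFPsg replicate 1 (-0.00038, up to 0.03 with another library left out), Tada2b for Tada2bsg2 without GFPsg replicate 2 (-0.01) or Tada2bsg2 replicate 1 (-0.02, up to 0.06), and Tnfsf9 for both guides without GFPsg replicate 2 (-0.05, up to 0.09). The cause was not tested.

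Genes called between the guides numbered 660 and went to 1070 with no filter, 980 in DESeq2, 1705 with a replicate block, and between 335 and 808 with a library left out (345 without Tada2bsg1 replicate 2, 335 without Tada2bsg1 replicate 3, 399 without Tada2bsg2 replicate 2). With the block 1 member, Cd47, was called (-0.12, edgeR, adjusted p = 0.039). Same-numbered libraries correlated at -0.01 to 0.10 in their deviations from group means, and libraries with different numbers at -0.09 to 0.04. Not every library correlated best with its own number. The labels give only the numbers, and whether the same number marks a shared batch was not tested. Scaling by library size alone moved the share of higher genes among those called from 48.4% to 63.3%, and the median log2 change of all genes from -0.019 to 0.066. Depth limits Tnfrsf14, Nt5e, Cd200 and Vsir, where 3 counts equal 0.038 to 0.045 CPM in a library.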

Other observations

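Genes within 100 kb of each ligand gene were looked at after the member results were seen, and are given as values, beside 51.0% of all tested genes called, 24.7% higher and 26.3% lower. Neighbouring windows can share genes. Around Nectin2, which was not called, 6 of 8 tested neighbours rose and 1 fell. Of the 6, Gm26600 was at 0.00966 ± 0.00838 CPM in GFPsg, 0.161 ± 0.0355 CPM with Tada2bsg1 and 0.085 ± 0.0241 CPM with Tada2bsg2. It passed the filter only through the knockout libraries, which tilts this tally toward rises. Bcl3, an IκB family gene that lies between Nectin2 and Pvr and within reach of both, went from 0.274 ± 0.0322 CPM in GFPsg to 4.35 ± 0.142 and 3.26 ± 0.348 CPM (log2 fold change 3.78 ± 0.15, edgeR, adjusted p = 1.12e-12). Bcam, an adhesion molecule gene, rose by 2.68 ± 0.13 and Relb, an NF-κB subunit gene, by 0.79 ± 0.08, while Apoe, which encodes apolipoprotein E, fell by 1.34 on the log2 scale, from 348.1 ± 9.57 to 124.2 ± 3.4 and 153.2 ± 5.11 CPM. Around Cd274, 4 of 5 tested neighbours fell, among them Jak2 (-0.16 ± 0.04), Insl6 (-0.60 ± 0.07) and Rln1 (-2.44 ± 0.26), and none rose. Of the single tested neighbour of Cd47, Ift57, the level rose by 0.53 ± 0.08. The 1 tested neighbour of Lgals9, Ksr1, was at -0.05 ± 0.1 and not called (edgeR, adjusted p = 0.735). Around Pvr 2 of 5 tested neighbours rose and 3 were not called, both of the 2 also near Nectin2, and around Cd276 2 of 4 rose and 2 were not called. Near Cd276, 4930461G14Rik, which rose, was at 0.00466 ± 0.00808 CPM in GFPsg, 0.126 ± 0.0313 CPM with Tada2bsg1 and 0.115 ± 0.167 CPM with Tada2bsg2. This gene also passed the filter only through the knockout libraries. Around Tnfrsf14 1 of 2 fell. That gene, Plch2, was low in every group, at 0.324 ± 0.04 CPM in GFPsg, 0.104 ± 0.0158 CPM with Tada2bsg1 and 0.165 ± 0.0555 CPM with Tada2bsg2. Around Nt5e none of 4 was called, the 1 near Vsir was not called, and Cd200 had no tested neighbour.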
